A study of Mus musculus with 6 samples.

Results

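The Hippo pathway effectors and TEAD factors are a set of 10 genes chosen by name for their place in 1 signalling pathway: the coactivator genes Yap1 and Wwtr1, the 4 TEAD transcription factor genes Tead1, Tead2, Tead3 and Tead4, the kinase genes Lats1 and Lats2, and the target genes Ankrd1 and Amotl2. All 10 were found among the 45703 genes of the count table. They were measured by RNA sequencing in 6 biological replicates of a mixed primary culture from dorsal root ganglia (DRG), which hold primary sensory neurons and their glia. The donors were wild type C57BL/6 mice aged 4 to 6 weeks. The cells were freed with collagenase blends, plated on poly-L-lysine and grown for 7 days in 10% fetal calf serum, with the growth factors EGF and FGF added (10 ng/ml), and each sample was the RNA of 2 culture dishes. All 6 samples form 1 group with the same treatment, so no condition was compared. The questions were which member of each gene family was present, at what level, and how far the cultures differed.

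In the Hippo pathway, the MST kinases activate the LATS kinases, and LATS kinases phosphorylate YAP (from Yap1) and its paralog TAZ (from Wwtr1), which are then held in the cytoplasm and degraded. Unphosphorylated YAP and TAZ enter the nucleus, where they have no DNA-binding domain of their own and act through TEAD factors at promoters and enhancers. The pathway responds to cell density, cell shape and the stiffness of the substrate, and in Schwann cells YAP and TAZ are known to be needed for proliferation and for myelination. Its control runs largely through phosphorylation and location of the proteins, which transcript levels do not measure.

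The libraries held between 20070639 and 22968642 counts. CPM scales the count of a gene by the total of its library, and levels of different genes were compared only as CPM per kb of combined exon length. The cultures held transcripts of several cell types. The 4 genes of a glial lineage list (Sox10, Erbb3, Cdh19 and Foxd3) summed to between 2191 CPM in culture 5 and 3216 CPM in culture 2, the 6 genes of a neuron list to between 847 and 1780 CPM, and the 6 genes of a fibroblast list to between 3338 CPM in culture 1 and 13967 CPM in culture 5. Cultures 1 and 5 thus stood at opposite ends for fibroblast genes. In such bulk samples, fewer cells of a type and less RNA per cell cannot be told apart.

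Of the coactivators, Wwtr1 was the higher. Yap1 (chromosome 9, 7931999 to 8004638, GRCm38.p6, minus strand) had 156, 161, 156, 165, 180.2 and 165 CPM in cultures 1 to 6, a mean of 164 ± 8.99 CPM (SD, n = 6). Wwtr1 (chromosome 3, 57455644 to 57575910, minus strand) had 255, 257, 232, 263, 268 and 272 CPM, a mean of 258 ± 14.2 CPM (SD, n = 6). Culture 5 was highest for Yap1 and culture 3 was lowest for Wwtr1, and the highest culture exceeded the lowest by 1.16 times for Yap1 and 1.17 times for Wwtr1. Per kb of exon, Wwtr1 stood at 53.9 ± 2.98 and Yap1 at 37.0 ± 2.03 CPM per kb, with no overlap between the genes. The difference was 0.54 ± 0.0664 on the log2 scale, a fold of 1.46, with Wwtr1 higher in 6 of 6 cultures (exact permutation test flipping the signs of the 6 differences, two-sided, p = 0.0312, the smallest that 6 cultures allow; Benjamini-Hochberg adjusted over the 8 pairs of genes compared in the same way, 0.0357). Wwtr1 took from 57.9% to 60.4% of their summed level in the 6 cultures. Since no p can be smaller than 0.0312, a pair passes the adjustment only when most of the 8 pairs reach that value. Most of the 8 are pairs of TEAD genes, so the adjusted values of the other pairs rest partly on these.

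Both LATS kinase genes were present at levels below the coactivators they act on. Lats1 (chromosome 10, 7681200 to 7716461, plus strand) had 132, 127, 117, 124, 126 and 119 CPM, a mean of 124 ± 5.59 CPM (SD, n = 6). Lats2 (chromosome 14, 57689662 to 57746212, minus strand) had 119.9, 132, 129, 123, 118 and 152 CPM, a mean of 129 ± 12.4 CPM (SD, n = 6). Lats1 was nearly level across cultures, while Lats2 was highest in culture 6. Lats2 is itself a transcriptional target of YAP and TAZ, a known feedback loop. Per kb, Lats2 stood at 22.8 ± 2.20 and Lats1 at 16.2 ± 0.728 CPM per kb, and the ranges did not overlap. The difference was 0.49 ± 0.178 on the log2 scale, higher for Lats2 in 6 of 6 cultures (exact sign-flip permutation p = 0.0312, adjusted 0.0357). Its size and call depended on the length used. With the longest coding transcript of each gene in GENCODE it was 0.52 (exact sign-flip permutation, adjusted p = 0.0357). With the longest coding length it was 0.16 and did not pass (exact sign-flip permutation, adjusted p = 0.107). Lats1 overlaps Pcmt1 on the opposite strand, at a mean of 84.6 CPM. The exons of these genes share 0 bases in GENCODE vM21, where Lats1 has 7297 exon bases. The count table gives Lats1 a combined exon length of 7676 bases, and overlap of those exons was not checked.

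Among the DNA-binding partners, Tead1 dominated. It is the TEAD gene with the broadest expression in adult tissues. Tead1 (chromosome 7, 112679356 to 112906784, plus strand) had 697, 708, 630.5, 608, 535 and 627 CPM, a mean of 634 ± 63.2 CPM (SD, n = 6), and was lowest in culture 5. Its counts were fractional in 6 of 6 libraries, which may mean that some reads were shared with other places or genes. The size of such a part was not measured, and it may make the level of Tead1 less certain. Counts were also fractional in 3 libraries for Lats1 and in 1 library each for Lats2 and Tead3, so the same limit holds there. Counts of Yap1, Wwtr1, Tead2, Tead4, Ankrd1 and Amotl2 were whole in every library. Tead2 (chromosome 7, 45215792 to 45233468, plus strand), known from the early embryo and neural progenitors, had 30.9, 28.4, 28.2, 32.0, 45.6 and 22.6 CPM, highest in culture 5 and lowest in culture 6. Tead3 (chromosome 17, 28331671 to 28350805, minus strand), known from placenta, had 22.8, 31.1, 29.1, 29.1, 27.2 and 29.8 CPM, lowest in culture 1. Tead4 (chromosome 6, 128227143 to 128300813, minus strand), which is needed for the trophectoderm of the blastocyst and is also expressed in muscle precursors, had 12, 19, 21, 9, 31 and 23 counts. That is a mean of 0.898 ± 0.382 CPM (SD, n = 6), and its summed 115 counts give an exact 95% Poisson interval from 0.739 to 1.07 CPM, which covers counting error only.

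Per kb of exon, the TEAD genes stood at 64.0 ± 6.38 for Tead1, 13.3 ± 3.28 for Tead2, 9.39 ± 0.976 for Tead3 and 0.292 ± 0.124 CPM per kb for Tead4 (SD, n = 6). Tead1 exceeded Tead2 by 2.29 ± 0.437, Tead3 by 2.76 ± 0.226 and Tead4 by 7.41 ± 0.562 on the log2(CPM per kb + 0.1) scale, each in 6 of 6 cultures (exact sign-flip permutation p = 0.0312, adjusted 0.0357). Tead2 and Tead3 each exceeded Tead4 as well, by 5.12 ± 0.510 and 4.65 ± 0.446, with the same p-values. The sizes depend on the length and the pseudocount. With the longest coding transcript of each gene in GENCODE, Tead1 exceeded Tead2 by 2.80 and Tead3 by 2.64. With the longest coding length these were 4.39 and 4.58. With a pseudocount of 1 the difference from Tead4 was 5.65 for Tead1, 3.44 for Tead2 and 3.01 for Tead3. Tead2 and Tead3 were not separated: Tead2 was higher by 0.47 ± 0.410 in 5 of 6 cultures, with -0.05 in culture 6 and 1.09 in culture 5 (exact sign-flip permutation p = 0.0625, adjusted 0.0625). With the longest coding transcript of GENCODE as length the sign turned, to -0.17 (adjusted p = 0.375).

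**Figure D1:**
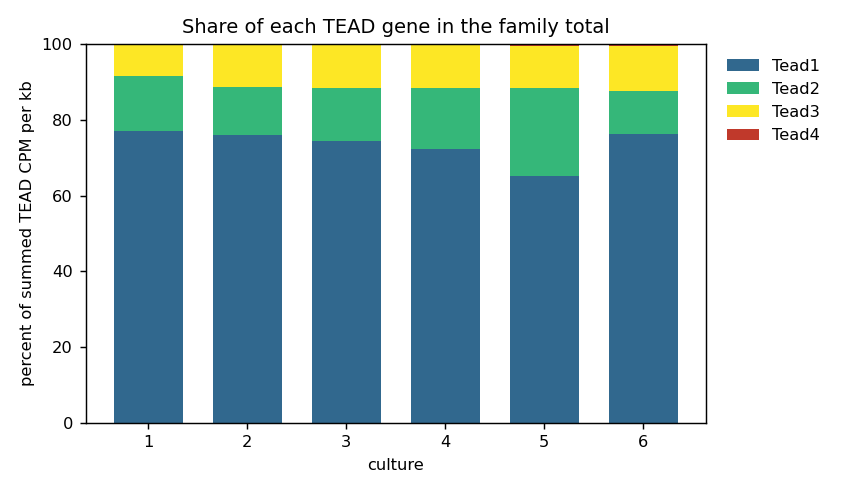
Stacked bars of the share of each TEAD gene in the summed TEAD level (percent of CPM per kb of exon) in each of the 6 cultures. Tead1 takes from 65.2% in culture 5 to 77.1% in culture 1, Tead2 reaches 23.3% in culture 5, and Tead4, at 0.172% to 0.581%, is too thin to see.

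The makeup of the family shifted most in culture 5. Tead1 made up 73.5% ± 4.41 of the summed TEAD level and Tead2 15.3% ± 4.20 (SD, n = 6). In culture 5 these were 65.2% and 23.3%, against 72.4% to 77.1% and 11.5% to 16.0% in the other cultures. Tead3 lay between 8.32% and 11.9%. With the longest coding transcript of GENCODE as length, Tead1 made up 76.3% ± 3.73 and Tead2 11.2% ± 3.24. With coding lengths Tead1 made up 91.5% ± 1.76 and Tead2 4.51% ± 1.48. Under both lengths culture 5 was again the lowest for Tead1 (69.4% and 88.2%) and the highest for Tead2 (17.3% and 7.37%). These shares were not tested, since the cultures belong to 1 group.

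In order of level per kb, the members ran Tead1, Wwtr1, Yap1, Lats2, Lats1, Amotl2, Tead2, Tead3, Tead4 and Ankrd1. Tead1 lay above 96.1% of the 21843 protein-coding genes of the table, Wwtr1 above 95.2%, Yap1 above 92.5%, and the LATS genes, Amotl2, Tead2 and Tead3 above 73.8% to 87.5%. Tead4 and Ankrd1 lay above 40.7% and 38.5%. The levels of neighbours in the order did not overlap between Wwtr1 and Yap1, Yap1 and Lats2, Lats2 and Lats1, and Tead3 and Tead4. The other 5 neighbouring pairs overlapped. Tead1 was above Wwtr1 in 5 of 6 cultures (0.24 ± 0.189, log2, SD, n = 6), Lats1 above Amotl2 in 3 of 6, Amotl2 above Tead2 in 4 of 6, Tead2 above Tead3 in 5 of 6 and Tead4 above Ankrd1 in 5 of 6.

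**Figure D2:**
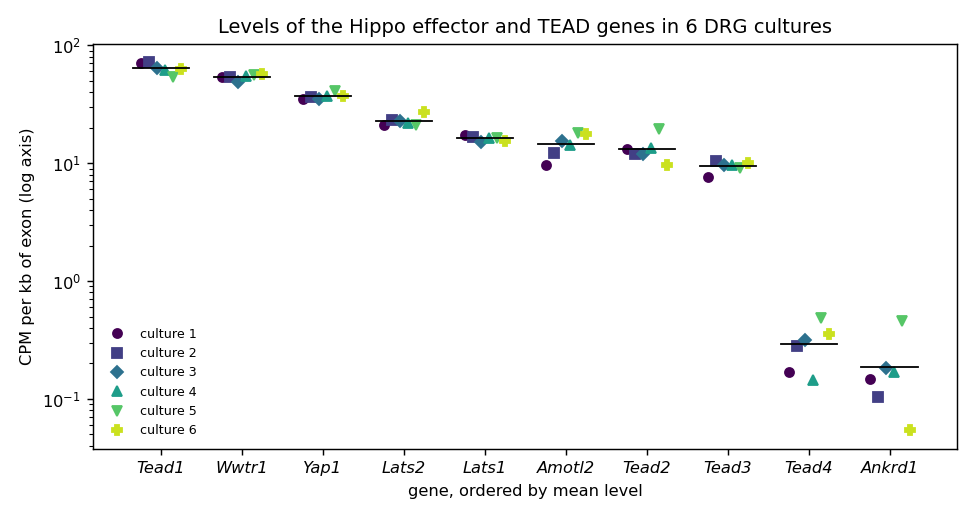
Level of each member in each of the 6 cultures, in CPM per kb of exon on a log axis; symbols mark the cultures and bars the mean. Of the members, 8 lie between 7.59 and 71.5 CPM per kb, while Tead4 and Ankrd1 lie below 0.5.

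The 2 target genes stood at very different levels. Amotl2 (chromosome 9, 102717091 to 102733418, plus strand) encodes an angiomotin-like scaffold that binds YAP and promotes its inhibition, so that it is both a target and a brake. It had 46.8, 59.8, 74.4, 69.5, 87.2 and 85.2 CPM, a mean of 70.5 ± 15.4 CPM (SD, n = 6), lowest in culture 1 and 1.86 times higher in culture 5. Ankrd1 (chromosome 19, 36111965 to 36119844, minus strand) encodes a muscle ankyrin repeat protein of heart and stretched muscle and is among the most used reporters of YAP and TAZ activity. It had 6, 4, 7, 6, 17 and 2 counts, a mean of 0.329 ± 0.251 CPM (SD, n = 6). Its 42 counts in all give an exact 95% Poisson interval from 0.236 to 0.442 CPM for counting error. In culture 6 the gene was under the limit of 3 counts below which a gene was not regarded as detected. Genes of striated muscle were as scarce: the 9 listed (Myh6, Myh7, Tnnt2, Tnni3, Ttn, Ckm, Myh4, Tnnt3 and Acta1) summed to between 1.27 CPM in culture 1 and 3.78 CPM in culture 5, none reached 1 CPM in all cultures, and 4 (Myh6, Myh7, Ttn and Ckm) had at most 3 counts in every library. The part of muscle cells in the few Ankrd1 counts was not tested.

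The sequences upstream of these targets are shown so that each level can be read beside the letters TEAD factors bind. Windows of 250 bases before each annotated start were read from RefSeq on GRCm38.p6 and searched for GGAATG on either strand (CATTCC on the printed strand when it lies on the other), the core of the element that TEAD factors bind; no other motif was searched. The capitals mark these letters. Ankrd1 holds 2 of them, starting 210 and 123 bases before the start (chr19:36119845-36120094, minus strand), Amotl2 holds 1 at 65 bases (chr9:102717554-102717803, plus strand, a start that lies inside the gene's span), and Ccn1, a target with a high level, holds 1 at 103 bases (chr3:145649986-145650235, minus strand).
Ankrd1: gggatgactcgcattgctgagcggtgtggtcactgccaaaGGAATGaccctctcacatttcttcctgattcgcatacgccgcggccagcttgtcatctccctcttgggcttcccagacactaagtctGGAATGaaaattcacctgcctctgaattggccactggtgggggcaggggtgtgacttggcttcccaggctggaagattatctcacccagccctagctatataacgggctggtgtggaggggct
Amotl2: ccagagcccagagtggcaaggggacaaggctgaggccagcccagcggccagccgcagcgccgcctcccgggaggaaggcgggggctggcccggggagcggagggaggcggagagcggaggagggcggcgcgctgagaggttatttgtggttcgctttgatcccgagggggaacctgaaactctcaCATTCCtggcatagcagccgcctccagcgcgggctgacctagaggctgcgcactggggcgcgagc
Ccn1: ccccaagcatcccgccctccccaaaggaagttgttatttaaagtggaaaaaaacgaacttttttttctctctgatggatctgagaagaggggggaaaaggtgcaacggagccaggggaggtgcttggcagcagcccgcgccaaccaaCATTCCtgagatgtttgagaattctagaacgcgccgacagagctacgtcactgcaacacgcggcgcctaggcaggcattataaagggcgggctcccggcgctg
Of 32851 such windows over 27025 genes, 12.6% hold the letters at least once and 1.02% at least 2 times. A window was at hand for 8 of the 10 members, not for Tead1 and Tead4. Of these 8 genes, Ankrd1, Amotl2, Yap1, Wwtr1 and Tead3 hold the letters in at least 1 window, and Lats1, Lats2 and Tead2 do not. Of 12 targets of the signature described next that have a window, 4 hold the letters (Ccn1, Axl, Crim1 and Ptpn14), and the high targets Gadd45a and Myof do not; a gene with several starts has several windows. The 12.6% is a share of windows, and no share over the 27025 genes was computed. The counts of genes can therefore not be read against it. A match describes the letters only and was not tested for binding.

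Most other published targets stood far above Ankrd1. A signature of 19 other YAP and TAZ target genes was examined, and 18 of them reached 1 CPM in all 6 cultures. So did 13911 of the 14998 genes that passed the filter on low counts, so this count says little about the targets. The exception, Foxf2, a transcription factor of mesenchyme, did not pass that filter and had 1 count in culture 1 and 147 in culture 5. The highest was Axl, a receptor tyrosine kinase, at 229 CPM per kb and 1209 ± 67.3 CPM (SD, n = 6). Ccn1 (chromosome 3, 145646971 to 145649985), a secreted matrix-bound protein also called Cyr61, stood at 101 CPM per kb, and Ccn2 (chromosome 10, 24595442 to 24598683), its relative also called Ctgf, at 94.6 CPM per kb, against 0.186 ± 0.142 CPM per kb for Ankrd1. The other high members were Gadd45a, a stress response gene, at 75.5, Ccdc80, a matrix protein, at 63.0, and Myof, a membrane repair protein, at 55.4 CPM per kb. The median of the 19 was 24.5 CPM per kb, and the median of the 14998 genes that passed the filter on low counts was 7.20.

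The targets also differed in how far they varied. Ccn2 had 29.1, 84.0, 264, 309.8, 464 and 214 CPM in cultures 1 to 6, so that culture 5 exceeded culture 1 by 15.9 times. Ccn1 had 49.9, 155, 256, 212, 349 and 210.2 CPM, a range of 7.01 times. Both were lowest in culture 1 and highest in culture 5, as were Amotl2, Crim1, Tgfb2, Nuak2, Ptpn14 and Foxf2. Axl varied by 1.15 times and was highest in culture 1. Of the 19 targets, 9 were highest in culture 5 and 8 lowest in culture 1; among all genes that passed the filter, 29.2% were highest in culture 5 and 23.8% lowest in culture 1. Of the 10 members, 5 were highest in culture 5 (Yap1, Tead2, Tead4, Ankrd1 and Amotl2) and 3 lowest in culture 1 (Yap1, Tead3 and Amotl2). Tead4, Ankrd1 and the target Foxf2 did not pass the filter, so the shares over all genes do not cover them. Among the 8 members that passed, only Yap1, Tead2 and Amotl2 were highest in culture 5.

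**Figure D3:**
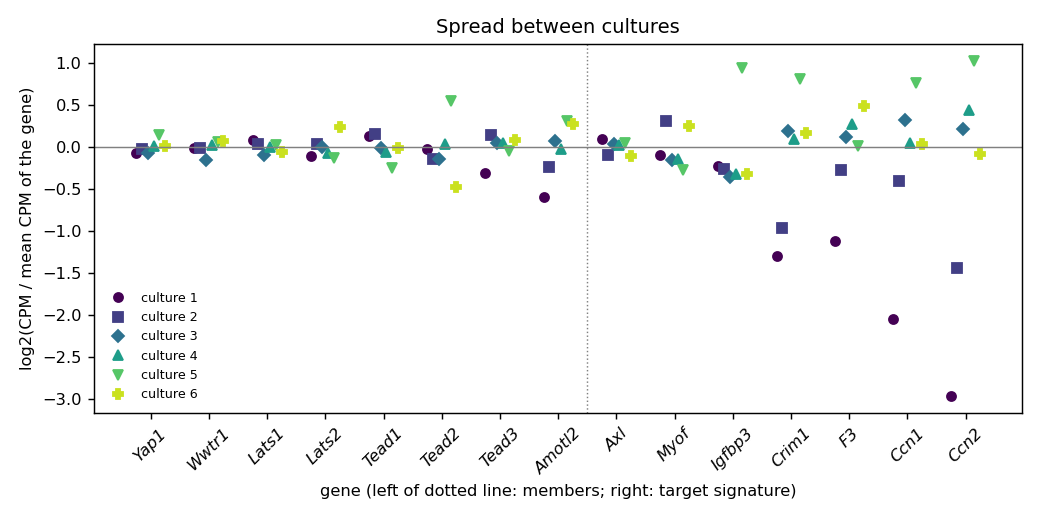
Deviation of each culture from the mean of the gene, as log2 of CPM over mean CPM, for the 8 members with more than 1 CPM in all cultures (left) and 7 genes of the target signature (right). The 7 are a selection from the 19 targets. Those left out include steady genes, such as Asap1 (range 1.27 times) and Rbms3 (1.33 times), and variable ones, such as Tgfb2 (4.19 times). Yap1, Wwtr1 and Lats1 stay close to 0, while Ccn1 and Ccn2 fall far below their means in culture 1.

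Several lists of markers of other cell types had their extremes in the same cultures as Ccn1 and Ccn2, and the neuron list did not. All 6 fibroblast genes were lowest in culture 1 and 5 of 6 highest in culture 5. The 5 genes of a list for mural cells of blood vessels (Acta2, Tagln, Rgs5, Myh11 and Cspg4), summed to 179 CPM in culture 1 and 1643 CPM in culture 5, the extremes of the 6 cultures, and 4 of 5 were lowest in culture 1, while 3 of 5 were highest in culture 5. The 4 endothelial genes (Pecam1, Cdh5, Kdr and Tek) summed to between 6.31 and 100.2 CPM. The 4 macrophage genes (Csf1r, Aif1, Adgre1 and Itgam) summed to between 7.23 and 82.1 CPM. Both sums were again lowest in culture 1 and highest in culture 5. All 4 endothelial genes were highest in culture 5, but only 2 were lowest in culture 1. Among the macrophage genes, 4 were lowest in culture 1 and 3 highest in culture 5. No defining marker of these lists was at 0 in every library, but Aif1 had at most 3 counts in 3 libraries. The 6 neuron genes went the other way, with the lowest sum, 847 CPM, in culture 5 and the highest, 1780 CPM, in culture 3, and 4 of 6 were lowest in culture 5. The part of these cells in the levels of Ccn1, Ccn2 and Amotl2 was not tested.

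Variation of the members between cultures was tested in 2 ways on the whole table. The filter on low counts kept 8 of the 10 members and dropped Tead4 and Ankrd1. The chi-square test for variation beyond counting noise, with Benjamini-Hochberg adjustment over 14998 genes, called 11444 genes or 76.3% of those tested, and all 8 members that passed the filter were among the called genes. With a share that high, 8 of 8 says little about these genes, and counts this large make small differences pass: Yap1, at a range of 1.16 times, had an adjusted chi-square p of 1.78e-09. Tead3 lost its call without culture 1 (adjusted chi-square p = 0.0606). Against genes of similar abundance, edgeR's quasi-likelihood fit called 0 of 14998 genes (0%) at an adjusted p under 0.05, and 809 (5.39%) at an unadjusted p under 0.05. No member was among the latter, the lowest being Amotl2 (edgeR unadjusted p = 0.0730, adjusted 0.937). Without the filter on low counts the unadjusted p of Amotl2 was 0.0495, and without culture 5 it was 0.0480 (edgeR adjusted 0.914 and 0.897). The trend was estimated from these same genes with only 2.49 prior degrees of freedom, so hardly any gene could pass the adjustment. An unadjusted share close to the cutoff of 0.05 is then also largely built in. Neither count shows that the genes varied alike.

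As a description, the coefficient of variation (SD over mean of CPM, 6 cultures) split the members. It was 4.50% for Lats1, 5.49% for Yap1 and 5.52% for Wwtr1, near 10% for Lats2 (9.64%), Tead1 (9.97%) and Tead3 (10.4%), and 21.9% for Amotl2 and 24.7% for Tead2. Among the 500 tested genes closest in mean CPM, only 18.2% varied less than Wwtr1, 18.4% less than Lats1 and 21.2% less than Yap1, whereas 89.6% varied less than Tead2 and 92.2% less than Amotl2. Single cultures carried much of this spread. Without culture 5 the coefficient fell to 12.8% for Tead2 and 2.74% for Yap1, without culture 3 to 2.68% for Wwtr1, without culture 6 to 4.71% for Lats2, and without culture 1 to 4.83% for Tead3. For Lats1, Tead1 and Amotl2, leaving out each culture in turn gave 3.70% to 5.03%, 6.91% to 11.1% and 15.1% to 24.5%. The median over the 8 members was 9.80%, over all genes that passed the filter 12.1%, and over the 18 targets that passed it 17.8%.

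**Figure D4:**
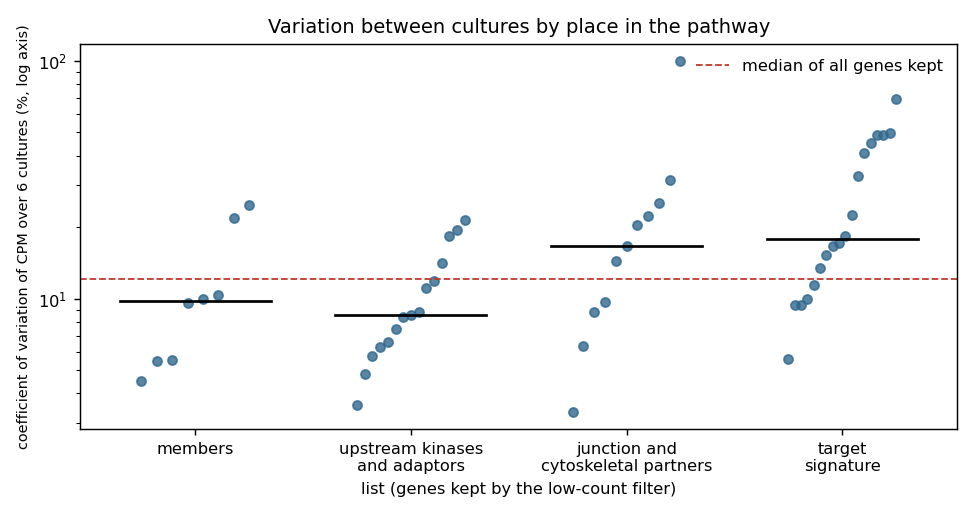
Coefficient of variation of CPM over the 6 cultures (percent, log axis) for each gene that passed the low-count filter, by list; black bars are list medians and the dashed line is the median of all genes that passed. Medians are 9.80% for the members, 8.56% for upstream kinases and adaptors, 16.6% for junction and cytoskeletal partners and 17.8% for the target signature.

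Genes upstream of LATS were present throughout. All 15 listed kinases and adaptors reached 1 CPM in every culture, as did 13911 of the 14998 genes that passed the filter. Their presence is thus no particular trait of these genes. The chi-square test called 14 of 15, against 76.3% of all genes. The exception was Sav1, the scaffold of the MST kinases, which is named after its value was seen (72.7 ± 2.60 CPM, adjusted chi-square p = 0.575). The highest per kb were Map4k4, a kinase that can phosphorylate LATS in parallel to MST, at 87.3, Frmd6, a FERM domain protein upstream of the core kinases, at 82.4, Mob1a, the LATS activator, at 54.7, and Nf2, the tumour suppressor Merlin whose loss in Schwann cells gives rise to schwannomas, at 24.8 CPM per kb. Frmd6 varied the most of these, from 285 CPM in culture 5 to 512 CPM in culture 2. Of the 15 genes, 9 were lowest in culture 5, against 26.2% of all genes that passed the filter.

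All 11 junction and cytoskeletal partners also reached 1 CPM throughout, like 13911 of the 14998 genes that passed the filter. The chi-square test called 11 of 11, against 76.3% of all genes. Tjp1, the tight junction protein ZO-1, stood at 27.4, Limd1, a LIM protein that can hold LATS inactive, at 24.4, Amotl1, the paralog of Amotl2, at 19.0, and the giant cadherin Fat1 at 14.7 CPM per kb. Amotl1 ranged from 199.8 to 237 CPM, a narrower spread than that of Amotl2, and Fat1 from 161 CPM in culture 1 to 352 CPM in culture 5. Of the Vgll cofactors, which compete with YAP and TAZ for TEAD, Vgll3 stood at 19.1 and Vgll4 at 5.94 CPM per kb, and Vgll1 and Vgll2 had 0 counts in all 6 libraries, below the limit of 3 counts (0.131 to 0.149 CPM per library).

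The levels of the members were set against 2 marker scores across the 6 cultures. Each score was the mean of log2(TMM-scaled CPM + 0.5) over the fibroblast or the glial lineage list, where TMM is edgeR's scaling of library sizes. Correlations were computed for all tested genes, with exact permutation over the 720 pairings and Benjamini-Hochberg adjustment over 14998 genes. No gene passed for either score: 0 of 14998 (0%) had an adjusted p under 0.05. With 6 cultures an exact p cannot be below 0.00139, so that no gene can pass unless at least 417 genes do; a gene that misses the correction here is not shown to be unrelated to the score. At an unadjusted p under 0.05, 11.6% of genes had a positive and 8.38% a negative r with the fibroblast score (2998 genes), and 7.59% a positive and 6.86% a negative r with the glial score (2168 genes). With no batch named in the labels, values within batches cannot be given. The 2 scores ran against each other. All 4 glial genes had a negative r with the fibroblast score, from -0.584 for Sox10 to -0.926 for Cdh19. Culture 5 had both the highest fibroblast score and the lowest glial score. Opposite relations of a gene with the 2 scores are therefore not 2 separate results.

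Tead1 followed the glial lineage score most closely of the members. Pearson's r was 0.960 (p = 0.00556 by the exact permutation test, adjusted 0.246) and Spearman's rho was 1, the order of the 6 cultures being the same for both (exact permutation p = 0.00278, adjusted 0.234). Neither value passed the correction over all genes. Without cultures 2 and 5, the farthest from the median score, r was 0.826, and leaving out each culture in turn gave 0.915 to 0.975. All 4 glial genes were lowest in culture 5, like Tead1. With the fibroblast score Tead1 had r = -0.830 (exact permutation p = 0.0431, adjusted 0.231) and rho = -0.829 (exact permutation p = 0.0583, adjusted 0.351); without cultures 1 and 5, r was -0.435.

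**Figure D5:**
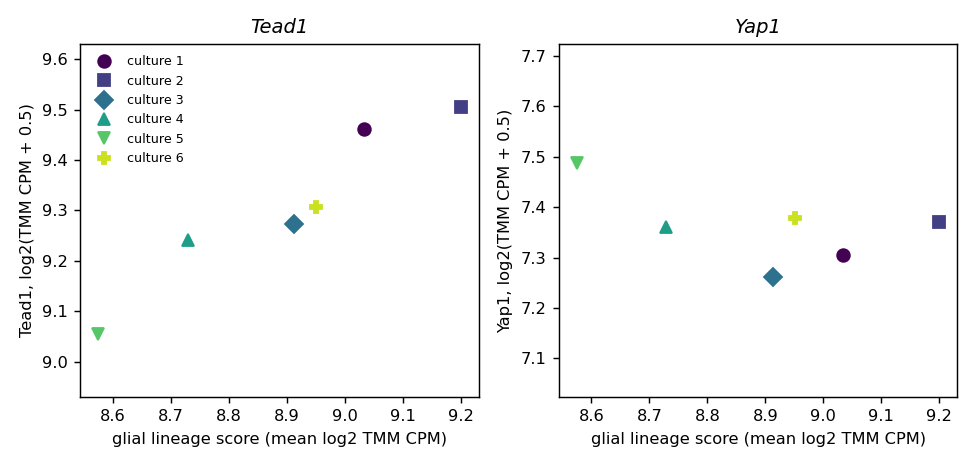
Levels of Tead1 (left) and Yap1 (right), as log2(TMM-scaled CPM + 0.5), against the glial lineage score of the same 6 cultures, on vertical axes of equal span. Tead1 rises with the score (r = 0.960), while Yap1 (r = -0.534) has its highest value in culture 5, where the score is lowest.

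For the coactivators the values depended on the scaling or on single cultures. Yap1 had r = -0.534 with the glial score (exact permutation p = 0.265, adjusted 0.556; rho = -0.257, exact permutation p = 0.658, adjusted 0.857), and without cultures 2 and 5 r was -0.328. Without culture 5 alone it was 0.108, and with CPM by library total in place of TMM it was -0.788 (exact permutation, adjusted p = 0.337). With the fibroblast score, Yap1 had r = 0.715 (exact permutation p = 0.103, adjusted 0.328; rho = 0.314, exact permutation p = 0.564, adjusted 0.797), and r was 0.0860 without cultures 1 and 5. It was 0.693 without culture 1 alone and 0.320 without culture 5 alone, so that it rests mainly on culture 5; with CPM by library total it was 0.844 (exact permutation, adjusted p = 0.232). Wwtr1 had r = 0.157 with the fibroblast score (exact permutation p = 0.717, adjusted 0.853) and r = -0.0661 with the glial score (exact permutation p = 0.899, adjusted 0.958), or 0.296 and -0.351 with CPM by library total. Among the targets, Amotl2 had r = 0.690 with the fibroblast score (exact permutation p = 0.135, adjusted 0.370), which became -0.353 without cultures 1 and 5. Ccn2 had r = 0.859 and rho = 0.943 with that score (exact permutation p = 0.0208 and 0.0167, adjusted 0.181 and 0.240), and r was 0.462 without cultures 1 and 5. Of the 18 targets that passed the filter, 11 had a positive and 7 a negative r with the fibroblast score. Of all 14998 genes tested, 48.5% had a positive r with it. No difference between the relations of 2 genes was tested.

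For 4 members the genes with the most similar pattern over the 6 cultures were listed, by Pearson's r of log2(TMM-scaled CPM + 0.5) among 11156 genes (11157 for Ankrd1) with a mean of at least 5 CPM. With 6 points and so many candidates, high values are found for any gene, and they describe these libraries only. Nearest to Yap1 were Haus4, a spindle augmin subunit (r = 0.993), Fkbp7, an endoplasmic reticulum prolyl isomerase (0.990), and Cldn1, a tight junction claudin (0.988). Nearest to Wwtr1 were Derl1, of endoplasmic reticulum protein degradation (0.997), Slc25a20, the mitochondrial carnitine carrier (0.996), and Eny2, of transcription and mRNA export (0.993). Nearest to Amotl2 were B3gnt2, a glycosyltransferase (0.994), Calhm5, a calcium homeostasis modulator family gene (0.993), and Nuak1 (0.989), a kinase and paralog of the target Nuak2. For Ankrd1, whose pattern rests on 2 to 17 counts, they were Taok3, Calr and Rnps1 (0.988 to 0.990).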

How the data were processed

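Stranded poly-A libraries of 6 cultures were sequenced. The deposited table holds estimated counts per gene, unscaled; 13.4% to 14.7% of values per library are not whole. Per the submitters' processing notes, cutadapt 2.5, STAR 2.7.2b, featureCounts 1.6.4 and the build GRCm38.p6 were used; strand setting and treatment of reads with several matches are not given in the sources used here. All 10 members matched RefSeq coordinates. CPM used unrounded counts; rounded counts went into R 4.3.3, with edgeR 4.0.16 for filterByExpr, TMM and the quasi-likelihood fit and DESeq2 1.42.0 for alternative size factors. Depth was about equal, and 3 counts were the detection limit. Pairs of genes with the same role (8) were tested by exact sign flips on log2(CPM per kb + 0.1), which measure the spread between these cultures only. Named genes were the members, the 4 highest of each pathway list, any gene of the target signature and the 3 genes most like Yap1, Wwtr1, Ankrd1 and Amotl2; others are named as exceptions. A gene of the planned glial lineage list is not reported here and was left out of its score and sum. Members and lists were chosen with earlier results of these data known. Only the chi-square test and the quasi-likelihood fit were checked on simulated data. Alternatives were other scalings, pseudocounts, filters and lengths and leaving out each culture; the GENCODE lengths, library totals for the quasi-likelihood fit and the coefficients of variation without each culture were added after the data were seen. There were 0 further columns of per-sample values.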

Additional observations from a re-analysis of the deposited data

Results flagged for a closer look

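In 13 measures of the members, the distance of the outermost culture from the next one was taken as a part of the whole range (Dixon's ratio) and set against the 95% critical value for 6 samples. Chance flags about 1 in 20 such groups, or 0.65 of 13 measures, and 2 exceeded it. The level of Yap1 in culture 5, 180.2 CPM against 156 to 165 CPM in the other cultures, gave 0.633. The level of Ankrd1 in culture 5, 17 counts against 2 to 7, gave 0.682. Culture 5 also had the highest fibroblast, mural, endothelial, macrophage and striated muscle sums and the lowest glial lineage sum, and the part of these cells in both values was not tested.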

How the results depend on the processing

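No paired analysis was possible because all samples belong to 1 group. The alternative of RefSeq protein lengths was not run, since no such lengths were given. Of the pairs of genes, Lats2 over Lats1 fell to 0.16 with coding lengths and Tead2 over Tead3 turned to -0.17 with the longest coding transcript; the other settings with all 6 cultures kept direction and call, though not size: with coding lengths Tead1 over Tead4 rose from 7.41 to 9.32. With 5 cultures an exact p cannot be below 0.0625, so no pair passed; the differences lay between 0.53 and 0.56 for Wwtr1 over Yap1, 0.43 and 0.53 for Lats2 over Lats1, 2.20 and 2.45 for Tead1 over Tead2, 2.67 and 2.80 over Tead3, 7.29 and 7.59 over Tead4, 4.99 and 5.27 for Tead2 over Tead4, and 4.52 and 4.79 for Tead3 over Tead4. Genes varying beyond counting noise numbered 10083 to 11535 under the other scalings and with a culture left out, and 13488 of 26854 without the filter. The count of 0 for the abundance trend stayed 0 in each alternative run, which says little, since this fit could hardly call a gene. The counts for the relations were also 0, which these designs nearly fix in advance, since no gene can pass unless at least 2500 of 14998 do with 5 cultures and 12499 with 4. Mean levels of all 10 members moved by less than 1 SD. Several relations changed sign, and none of them had passed a test. With 1 culture left out, r with the fibroblast score ran from -0.0219 to 0.288 for Wwtr1, -0.747 to 0.672 for Tead3, -0.120 to 0.918 for Tead4 and -0.476 to 0.299 for Lats1, and with the glial score from -0.777 to 0.108 for Yap1, -0.230 to 0.153 for Wwtr1, -0.292 to 0.933 for Tead3 and -0.710 to 0.413 for Tead4. Without the 2 cultures farthest from the median score, r with the fibroblast score was -0.394 for Tead3, -0.995 for Tead4, 0.166 for Lats1 and -0.353 for Amotl2, and with the glial score -0.592 for Tead3 and 0.367 for Tead4. The cause of these changes was not tested. Depth limits Tead4 and Ankrd1, which rest on at most 31 and 17 counts per library.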
